A study of Mus musculus with 6 samples.

Results

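Svet1 and 8 genes that mark the layers of the cerebral cortex (*Unc5d*, *Cux1*, *Cux2*, *Pou3f2*, *Rorb*, *Bcl11b*, *Fezf2* and *Tbr1*) were followed in cultured mouse neurons with and without CRISPR activation of *Kcna1*. These are 9 of the 50508 gene symbols listed, taken by symbol, and 9 of the 19504 genes above 0 in at least 1 library. Svet1 was picked because it is listed at 0 in every control library, so that its values are described here without a test. The other 8 were taken as layer identity genes.

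RNA was sequenced from primary neurons, with 3 libraries from neurons given a guide against LacZ (Ctrl-dCas9A, labelled sgLacZ, called the controls here) and 3 from neurons given the guide sg19 against the *Kcna1* promoter (Kcna1-dCas9A, labelled sgKcna1). The labels give the genotypes as control and as CRISPRa-mediated Kv1.1 upregulation, Kv1.1 being the potassium channel encoded by *Kcna1*, and by the study's methods the guide is sg19 and the lentivirus of either group was added the day after plating. Both groups carried a nuclease-dead Cas9 fused to the activator VP160, so that they differed in the guide. This fusion is driven by the Ef1alpha promoter, which is not restricted to neurons. The study's methods describe cortical neurons of newborn C57Bl/6J pups, whereas the labels give hippocampus as the tissue region. The methods state in general that experiments were repeated independently, but neither source says of these libraries that they came from separate cultures, so that p-values measure the spread between libraries, which may be technical. The deposited values are whole numbers whose sums, 999047 to 999717 per library, are nearly equal, and they were taken as values scaled to a common total and then rounded. A value listed at 0 thus stands for less than 0.5 on that scale, and the number of reads behind it is unknown. The libraries were made with a 3' kit, which reads transcript ends, and without any correction for length the values are compared here between libraries and not between genes.

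Neurons of the cerebral cortex are born in order, with the deep layers first and the upper layers last. A small set of transcription factors fixes their identity, and several of these factors repress each other. *Fezf2* and *Bcl11b* (also called Ctip2) specify the layer 5 neurons that project below the cortex, *Tbr1* the layer 6 neurons that project to the thalamus, and *Cux1*, *Cux2*, *Pou3f2* (Brn2) and *Rorb* mark upper layers. *Unc5d* encodes a repulsive guidance receptor of migrating upper-layer neurons. Svet1 is a noncoding transcript of the *Unc5d* locus that labels the subventricular zone, where upper-layer neurons are born. Several of these genes are not confined to the cortex, and *Bcl11b* and *Tbr1* are also found in hippocampal neurons.

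*Kcna1*, the gene targeted by sg19, was listed at 16, 16 and 16 in the controls and at 68, 47 and 65 in Kcna1-dCas9A, so that the libraries followed their labels (log2 fold change 1.83, standard error 0.16, limma adjusted p = 0.034). This call was lost when any library but Ctrl-dCas9A replicate 3 was left out (limma adjusted p from 0.11 to 0.14), while no value of the 2 groups overlapped. The position that sg19 recognizes is shown here with the closest match, next to an NGG PAM, in the *Unc5d* locus that holds Svet1 and with the closest match inside *Bcl11b*. Capitals mark the bases that differ from the guide, and the last bases of each line are the PAM.
*Kcna1* promoter: agtcaatgatcacatcctcctgg
*Unc5d* intron: CAtTaaAgatcaTTtcctcctgg
*Bcl11b* intron: GgtcaatgGAAacaGccCcctgg
In NCBIM37 (mm9) these sites were at chr6:126595930-126595949 on the plus strand, 120 bp upstream of the *Kcna1* start, at chr8:29893246-29893265 on the minus strand, and at chr12:109220025-109220044 on the plus strand, each without the PAM. The *Unc5d* site had 6 mismatches, A1C, G2A, C4T, T7A, C13T and A14T, counted from 1 at the 5′ end of the guide with the guide's base first, and lay 436555 bp from the *Unc5d* start. In the 8 annotated loci with 10000 bp added on each side, 0 sites had 4 or fewer mismatches, and the fewest mismatches ranged from 6 (*Unc5d*, *Cux1*, *Rorb* and *Bcl11b*) to 9 (*Pou3f2*). GENCODE vM1 holds no entry named Svet1 and only a fragment of *Cux2*, so that most of *Cux2* was not searched.

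Svet1 was listed at 0, 0 and 0 in the controls and at 4, 4 and 5 in Kcna1-dCas9A. All 3 Kcna1-dCas9A libraries thus listed a low value of it and no control library did, which is the pattern by which it was chosen. No fold can be given against a group listed at 0. The same pattern of 0 in every Ctrl-dCas9A library and more than 0 in every Kcna1-dCas9A library was shared by 133 of the 19504 genes (0.682%), and the opposite pattern by 62 (0.318%). By its mean in Kcna1-dCas9A (4.33), Svet1 was the 2nd highest of the 133 genes, whose median was 1.33. In 2 of the 133 genes every Kcna1-dCas9A library reached at least 4, Svet1 and the predicted gene Gm43188, which was singled out here after its values were seen. Among the 62 genes of the opposite pattern, 0 reached 4 in every Ctrl-dCas9A library. The cut at 4 is the lowest Kcna1-dCas9A value of Svet1 itself. These counts and its rank are thus a description and do not set Svet1 apart. The genes closest to Svet1 in mean value were Crip3 (5, 3 and 1 in Kcna1-dCas9A), Gm37965 (4, 3 and 2), Gm14021 (2, 3 and 3), Gm42442 (3, 3 and 2) and Gm43513 (2, 4 and 2), and Gm44438 (2, 2 and 4) was tied with the last 3 of these. In all, 74 of the 133 were predicted genes with a Gm number. The share of such genes among all 19504 was not counted, so that this number is no trait of the pattern.

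**Figure D1:**
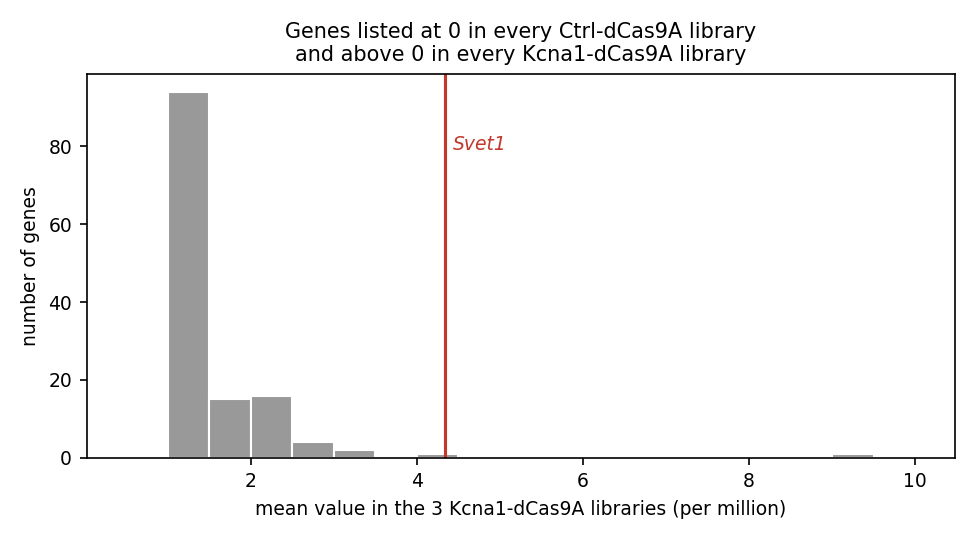
Histogram of the 133 genes at 0 throughout Ctrl-dCas9A and above 0 throughout Kcna1-dCas9A, with the mean deposited value in Kcna1-dCas9A on the x axis and the number of genes on the y axis. The red line marks Svet1 at 4.33, to the right of nearly all of the genes, whose median is 1.33.

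*Unc5d*, whose locus gives rise to Svet1, did not share this direction. It was listed at 41, 38 and 24 in the controls and at 21, 18 and 25 in Kcna1-dCas9A. The groups overlapped through Ctrl-dCas9A replicate 3, which lay within the range of the other group. The log2 fold change was -0.64 (standard error 0.23, 95% interval -1.18 to -0.10, limma adjusted p = 0.15). Without Ctrl-dCas9A replicate 3, the library that overlaps, it was -0.87 with a limma adjusted p of 0.036, and without any 1 of the other libraries it was -0.75 to -0.50 with limma adjusted p-values from 0.26 to 0.40. RefSeq places *Unc5d* at chr8:28646717-29219671 of GRCm38.p6, the assembly known as mm10 in the labels. Between its row and that of Svet1, the files list Gm9911 (2, 1 and 2 in Ctrl-dCas9A, and 5, 3 and 7 in Kcna1-dCas9A) and Gm45652 (0, 0 and 0, and 1, 5 and 1). These 2 predicted genes were looked at after the values of Svet1 were seen. Both were listed higher in every Kcna1-dCas9A library than in any control, and this is given as a description without a test, because they were picked for their place beside Svet1 and Gm45652 was above 0 in Kcna1-dCas9A only. The row after Svet1, Gm45656, was at 0 in all 6 libraries. Rows of the files follow the chromosomes (98.8% of neighbouring rows found in RefSeq are in coordinate order), so that the 3 transcripts stand next to *Unc5d*. On either side, the nearest listed genes by RefSeq were Gm26795, at 0 in all 6 libraries, and the pseudogene Nudc-ps1, at 5, 2 and 4 in Ctrl-dCas9A and 2, 4 and 2 in Kcna1-dCas9A, with overlapping groups. Where exons of such transcripts overlap exons of *Unc5d*, their reads can be told apart only between strands and only if strand was used in the counting. The study's methods name stranded reads for these libraries, but the use of strand in the counting is not stated.

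*Bcl11b*, a zinc finger factor, was the only one of the 8 tested layer genes with a limma adjusted p under 0.06. It was listed at 292, 279 and 224 in the controls and at 191, 182 and 162 in Kcna1-dCas9A. Every Kcna1-dCas9A library was below every control, and the ratio of the means was 0.673. The log2 fold change was -0.56 (standard error 0.13, 95% interval -0.86 to -0.26), with a limma adjusted p of 0.056, which did not pass the threshold of 0.05. The call depended on the setting, with a limma adjusted p of 0.042 after either rescaling of the libraries, 0.023 without Ctrl-dCas9A replicate 3, 0.14 to 0.21 without any 1 of the other libraries and 0.16 without the intensity trend.

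*Fezf2*, which acts upstream of *Bcl11b* in layer 5 neurons, showed the opposite direction. It was listed at 43, 46 and 56 in the controls and at 61, 62 and 71 in Kcna1-dCas9A. The lowest Kcna1-dCas9A library was above the highest control, and the log2 fold change was 0.42 (standard error 0.13, 95% interval 0.10 to 0.74, limma adjusted p = 0.12). A ratio of 2 genes within a library does not depend on the scaling, and the ratio of *Fezf2* to *Bcl11b*, chosen after the values were seen, was 0.147, 0.165 and 0.250 in Ctrl-dCas9A and 0.319, 0.341 and 0.438 in Kcna1-dCas9A. Ctrl-dCas9A replicate 3 was again the control nearest to the other group.

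*Tbr1*, a T-box factor that represses *Fezf2* and *Bcl11b* in layer 6 neurons, was listed at 38, 45 and 33 in the controls and at 34, 38 and 25 in Kcna1-dCas9A. The groups overlapped, and the log2 fold change of -0.26 had a 95% interval from -0.71 to 0.19 (limma adjusted p = 0.48), and leaving out 1 library moved it between -0.38 and -0.091.

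**Figure D2:**
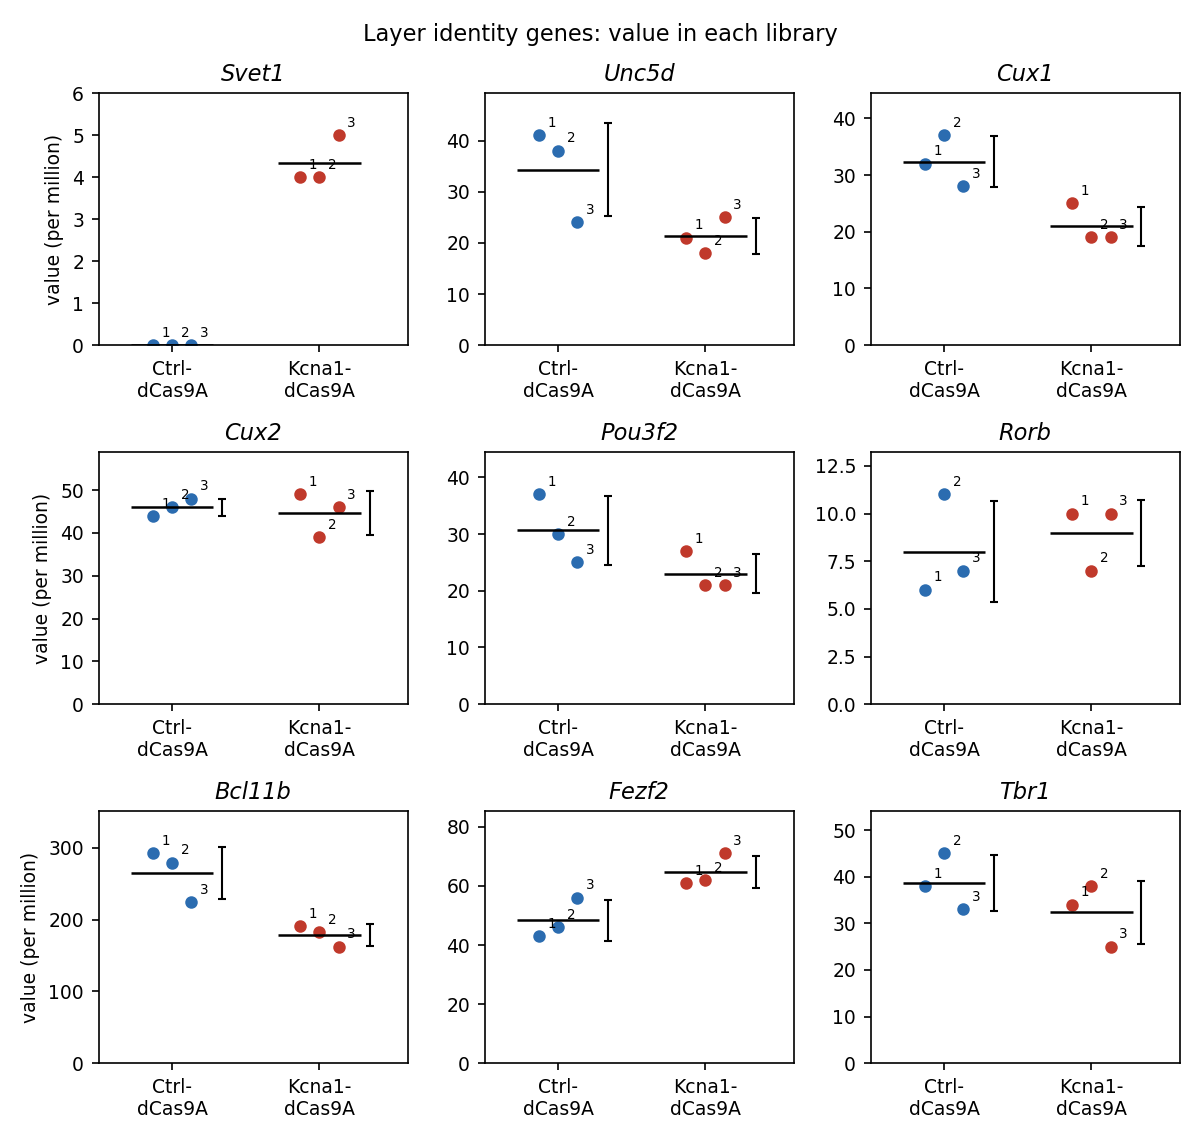
Deposited values of the 9 genes in each library, 1 panel per gene, with Ctrl-dCas9A in blue and Kcna1-dCas9A in red. Numbers are replicate numbers, horizontal lines are group means and error bars beside the points are the SD of 3 libraries (left out for Svet1). Svet1, *Cux1*, *Bcl11b* and *Fezf2* show no overlap between the groups, and Ctrl-dCas9A replicate 3 lies towards the Kcna1-dCas9A libraries for *Unc5d*, *Cux1*, *Pou3f2*, *Bcl11b*, *Fezf2* and *Tbr1*.

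Among the upper-layer factors, *Cux1* and *Cux2*, which encode related homeodomain proteins, differed in their values. *Cux1* was listed at 32, 37 and 28 in the controls and at 25, 19 and 19 in Kcna1-dCas9A, without overlap. Its log2 fold change was -0.60 (standard error 0.17, limma adjusted p = 0.089), and the ratio of the means was 0.649. *Cux2* was listed at 44, 46 and 48 in the controls and at 49, 39 and 46 in Kcna1-dCas9A. Here the Kcna1-dCas9A libraries lay on both sides of the controls, and the log2 fold change of -0.047 had a 95% interval from -0.34 to 0.24 (limma adjusted p = 0.83) and turned positive (0.039 and 0.069) with both rescalings. The ratio of *Cux2* to *Cux1*, also chosen after the values were seen, was 1.38, 1.24 and 1.71 in Ctrl-dCas9A and 1.96, 2.05 and 2.42 in Kcna1-dCas9A.

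*Pou3f2*, a POU factor of upper-layer neurons, was listed at 37, 30 and 25 in the controls and at 27, 21 and 21 in Kcna1-dCas9A, with overlap at 1 library of each group. Its log2 fold change was -0.39 (95% interval -0.83 to 0.043, limma adjusted p = 0.26), and -0.25 without Ctrl-dCas9A replicate 1. *Rorb*, a nuclear receptor of layer 4, was listed at 6, 11 and 7 in the controls and at 10, 7 and 10 in Kcna1-dCas9A. At these low values the groups overlapped, and the log2 fold change of 0.18 had a wide 95% interval, from -0.45 to 0.81 (limma adjusted p = 0.67), and leaving out 1 library moved it between 0.014 and 0.40.

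Of the 8 tested layer genes, 0 passed a limma adjusted p of 0.05, where 226 of all 19504 genes (1.16%) passed, 68 of them higher (0.349%) and 158 lower (0.81%) in Kcna1-dCas9A. With median-of-ratios factors 962 of all genes (4.93%) were higher and 757 (3.88%) lower, and 1 of the 8 passed, *Bcl11b*. Without Ctrl-dCas9A replicate 3, 2711 of the 19122 genes tested passed, 1158 higher and 1553 lower. *Bcl11b*, *Fezf2* and *Unc5d* were among them, 3 of the 8. Without any 1 of the other libraries 0 of all genes passed. At an unadjusted p under 0.05 from limma, *Fezf2* was higher and *Unc5d*, *Cux1* and *Bcl11b* were lower, 4 of 8, where 23.2% of all genes had such a p. This share was not counted for genes with a mean of at least 5 alone, so that 4 of 8 is no result about the 8. The groups did not overlap for 3 of the 8 (*Fezf2* higher, *Cux1* and *Bcl11b* lower), against 22.2% of all genes (8.98% higher and 13.3% lower) and 37.5% of the genes whose mean value reached 5, a mean that all 8 reached (14.4% higher and 23.1% lower). A count of 3 of 8 is near this background and is no result about the 8. For a single gene, 3 libraries against 3 allow an exact permutation p no lower than 0.1 (two-sided).

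The other genes of the layer lists give the setting of these values. In the lists of upper-layer, layer 5, layer 6, subplate, Cajal-Retzius cell and intermediate progenitor genes, 62 genes in all including the 8, 2 were listed at 0 throughout and 0 of the remaining 60 had a limma adjusted p under 0.05. At an unadjusted p under 0.05, 3 were higher and 13 lower, and the groups did not overlap for 15 (2 higher, 13 lower). In all, these counts of 60 are near the shares of all genes, 23.2% and 22.2%, but they lean to the lower side, where all genes gave 9.59% higher and 13.6% lower by p and 8.98% higher and 13.3% lower by overlap. Among the 42 with a mean of at least 5, 2 were higher and 11 lower without overlap, where 14.4% and 23.1% of all genes at such values were. No test of this lean was made. The median log2 fold change of the 42 that reached a mean value of 5 was -0.17, against -0.073 over the 9751 genes at such values. After median-of-ratios rescaling 5 of the 60 passed, *Mdga1* higher and *Bcl11b*, *Rprm*, *Kitl* and *Insm1* lower, where 8.81% of all genes passed, so that this count too is near the background.

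In the upper-layer list, 5 of the 14 genes with a mean of at least 5 were lower without overlap and 1 was higher, where 23.1% and 14.4% of all genes with a mean of at least 5 were. *Mdga1*, which encodes an adhesion protein of migrating upper-layer neurons, was listed at 29, 42 and 51 in the controls and at 63, 64 and 76 in Kcna1-dCas9A (log2 fold change 0.75, standard error 0.21, limma adjusted p = 0.087). *Plxnd1*, a semaphorin receptor, was listed at 18, 14 and 9 against 7, 8 and 4 (-0.99, standard error 0.32, limma adjusted p = 0.12). The LIM-domain gene *Lmo4* overlapped between groups. *Pou3f3*, a close relative of *Pou3f2*, was listed at 218, 202 and 206 against 201, 187 and 198, below every control, but its log2 fold change of -0.095 was 0.024 with upper-quartile factors.

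In the layer 5 list, *Bhlhe22*, a basic helix-loop-helix factor of projection neurons, had the direction of *Bcl11b*. It was listed at 903, 893 and 747 in the controls and at 615, 637 and 569 in Kcna1-dCas9A (log2 fold change -0.48, standard error 0.10, limma adjusted p = 0.056). *Parm1* was listed at 9, 17 and 15 against 20, 21 and 17, with overlap. The summed value of the 12 layer 5 genes was 1179 to 1425 in Ctrl-dCas9A and 976 to 1053 in Kcna1-dCas9A, and most of that sum came from *Bhlhe22* and *Bcl11b*. Of the 11 genes of this list with a mean of at least 5, 1 was higher and 2 were lower without overlap, near or under the shares of all genes at such values (14.4% and 23.1%).

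In the layer 6 list, *Rprm*, a gene of deep-layer neurons known as a target of p53, was listed at 154, 148 and 118 in the controls and at 91, 87 and 87 in Kcna1-dCas9A (log2 fold change -0.65, standard error 0.12, limma adjusted p = 0.053). *Crim1* was listed at 55, 70 and 47 against 40, 45 and 41 (-0.42, standard error 0.16, limma adjusted p = 0.17). Both were below every control, whereas *Nfia* and *Foxp1*, the list's genes of highest value, overlapped. The summed values of the list overlapped as well, at 1294 to 1655 and 1451 to 1647.

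In the subplate list the nuclear receptor *Nr4a2* was listed at 93, 93 and 73 in the controls and at 71, 65 and 64 in Kcna1-dCas9A (log2 fold change -0.36, standard error 0.13, limma adjusted p = 0.14), and *Hs3st4* overlapped. Of the 8 Cajal-Retzius cell genes 0 were free of overlap, where 22.2% of all genes were, a count too small to set the list apart, with *Reln*, the secreted signal of these cells, at 34, 40 and 28 against 43, 34 and 27 and a log2 fold change of 0.017 (95% interval -0.47 to 0.50). *Calb2* and *Ndnf* also overlapped. Intermediate progenitors of the subventricular zone, which Svet1 is known to label, were covered by 7 genes. *Insm1*, a zinc finger factor of these progenitors, was listed at 22, 18 and 12 in the controls and at 6, 5 and 7 in Kcna1-dCas9A, with the largest size of change among the layer-list genes plotted (log2 fold change -1.36, standard error 0.25, limma adjusted p = 0.053). *Eomes*, the defining gene of intermediate progenitors, was listed at 5, 4 and 9 against 3, 3 and 3, a direction opposite to that of Svet1. *Tfap2c* and *Btg2* overlapped.

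**Figure D3:**
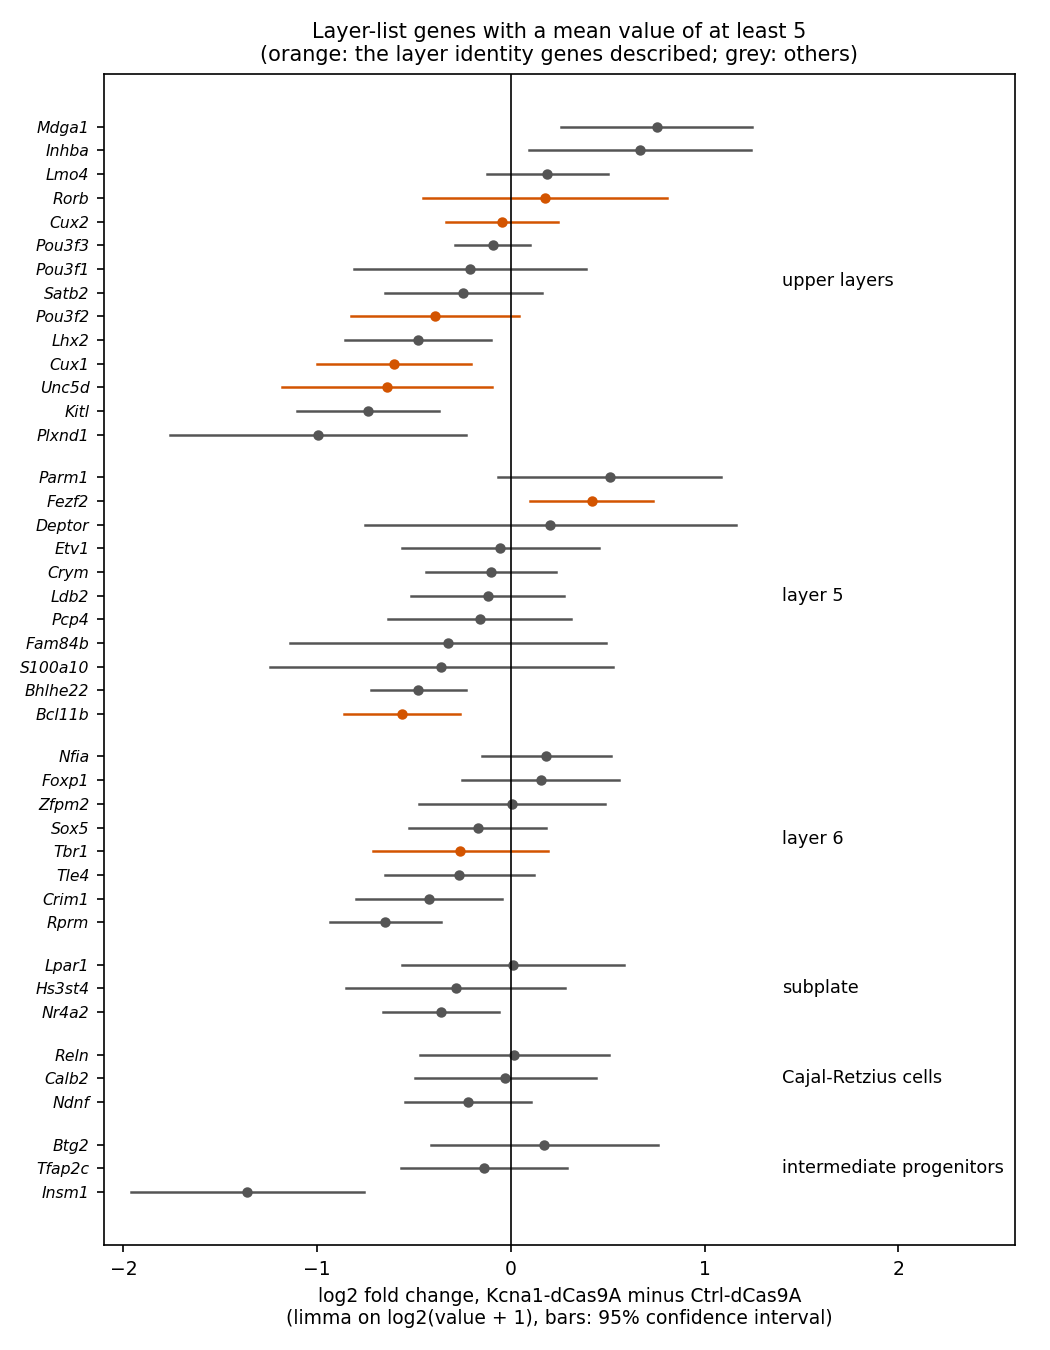
Log2 fold change of Kcna1-dCas9A minus Ctrl-dCas9A (x axis, limma on log2(value + 1)) for the 42 layer-list genes whose mean value reached 5, grouped by list, with 95% confidence intervals as bars. Orange marks the layer identity genes described and grey the others. Most points lie left of 0 (median -0.17), with *Insm1* at -1.36 as the lowest and *Mdga1* at 0.75 as the highest.

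The receptors related to *Unc5d* and the proteins that bind them formed a further list, of which 14 of 15 were in the files. At an unadjusted p under 0.05 from limma, 9 of the 14 were lower and 0 higher, against 13.6% and 9.59% of all genes. These shares were not counted for genes with a mean of at least 5 alone. Without overlap 8 of the 14 were lower, against 13.3% of all genes. Of the 12 with a mean of at least 5, 7 were lower and 0 higher without overlap, against 23.1% and 14.4% of all genes at such values. Of the 14, 0 had a limma adjusted p under 0.05. *Unc5a* was listed at 18, 8 and 7 in the controls and at 4, 1 and 1 in Kcna1-dCas9A (log2 fold change -2.03, standard error 0.49, limma adjusted p = 0.063). *Neo1*, which encodes the netrin and RGM receptor neogenin, was listed at 251, 251 and 170 against 138, 144 and 120 (-0.72, standard error 0.17, limma adjusted p = 0.062). Its ligand *Rgma* was listed at 131, 123 and 102 against 87, 92 and 80 (-0.45, standard error 0.12, limma adjusted p = 0.085). *Dscam*, a netrin receptor and adhesion molecule, was listed at 28, 25 and 16 against 15, 7 and 10 (-1.06, standard error 0.31, limma adjusted p = 0.098). *Flrt2*, which encodes a repulsive ligand of UNC5D, was listed at 69, 62 and 60 against 53, 55 and 44, also below every control. *Unc5c* (24, 28 and 50 against 43, 31 and 38) overlapped, so that the listed receptors did not all share a direction without overlap. After median-of-ratios rescaling *Unc5a*, *Neo1* and *Dscam* passed, 3 of 14 and all lower, where 3.88% of all genes passed lower. The list was written with earlier results of these data known.

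Markers of the labelled tissue and of other cells were read beside these genes. The 8 pan-neuronal markers summed to 6153 to 7080 in the controls and to 7246 to 8630 in Kcna1-dCas9A, and 0 passed. Of them *Tubb3*, a neuronal tubulin (1752 to 2605 against 3221 to 4591), and *Nefl*, a neurofilament subunit, were higher without overlap, and *Map2* (1614 to 1819 against 1427 to 1466) and *Snap25* (86 to 94 against 56 to 66) were lower without overlap. Without *Tubb3* the sums overlapped, at 4291 to 4475 against 4025 to 4302. The hippocampal markers summed to 1754 to 1841 in Ctrl-dCas9A and 1614 to 1887 in Kcna1-dCas9A and were above 0, as were the cortical layer genes, so that the values do not settle which of the 2 regions named was cultured. Most of the hippocampal sum came from *Zbtb20* (1358 to 1441 against 1250 to 1516), while *Prox1* (146, 160 and 107 against 89, 101 and 75) and *Dkk3* (24, 27 and 21 against 17, 18 and 12) were lower without overlap. The 10 astrocyte markers summed to 961 to 1069 against 702 to 718 (3 of 10 passed, all lower, where 0.81% of all genes passed lower and 0.349% higher). Among them *Gfap* (63, 45 and 57 against 46, 48 and 70), *Aldh1l1*, *S100b* and *Fgfr3* overlapped. The 12 radial glia and cell cycle markers summed to 1490 to 1568 against 1144 to 1290 (1 of 12 passed, *Hes5*, lower). The 8 oligodendrocyte lineage markers summed to 66 to 98 against 40 to 44 (1 of 7 tested passed, *Olig2*, lower, *Mog* was at 0, and *Mbp*, at 3, 3 and 2 against 7, 4 and 7, was higher without overlap). The 8 microglia markers summed to 23 to 27 against 55 to 73 (1 of 7 tested passed, C1qa, higher, and P2ry12 was at 0). The excitatory neuron markers overlapped in sum, at 1729 to 1920 and 1671 to 1841, as did the inhibitory ones, at 266 to 306 and 254 to 300. Beneath these sums were *Slc17a7*, *Camk2a* and *Nrgn* higher and *Neurod6* lower without overlap among 8 excitatory markers, and *Gad1*, *Slc32a1* and *Dlx2* lower without overlap among 8 inhibitory markers, of which 0 passed in either list. The non-overlapping counts of 4 of 8, 4 of 8 and 3 of 8 in the pan-neuronal, excitatory and inhibitory lists are near the 37.5% of genes with a mean of at least 5. In RNA from whole cultures, fewer cells of a type and less RNA per cell cannot be told apart, and the part of these cell types in the values of the layer genes was not tested.

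**Figure D4:**
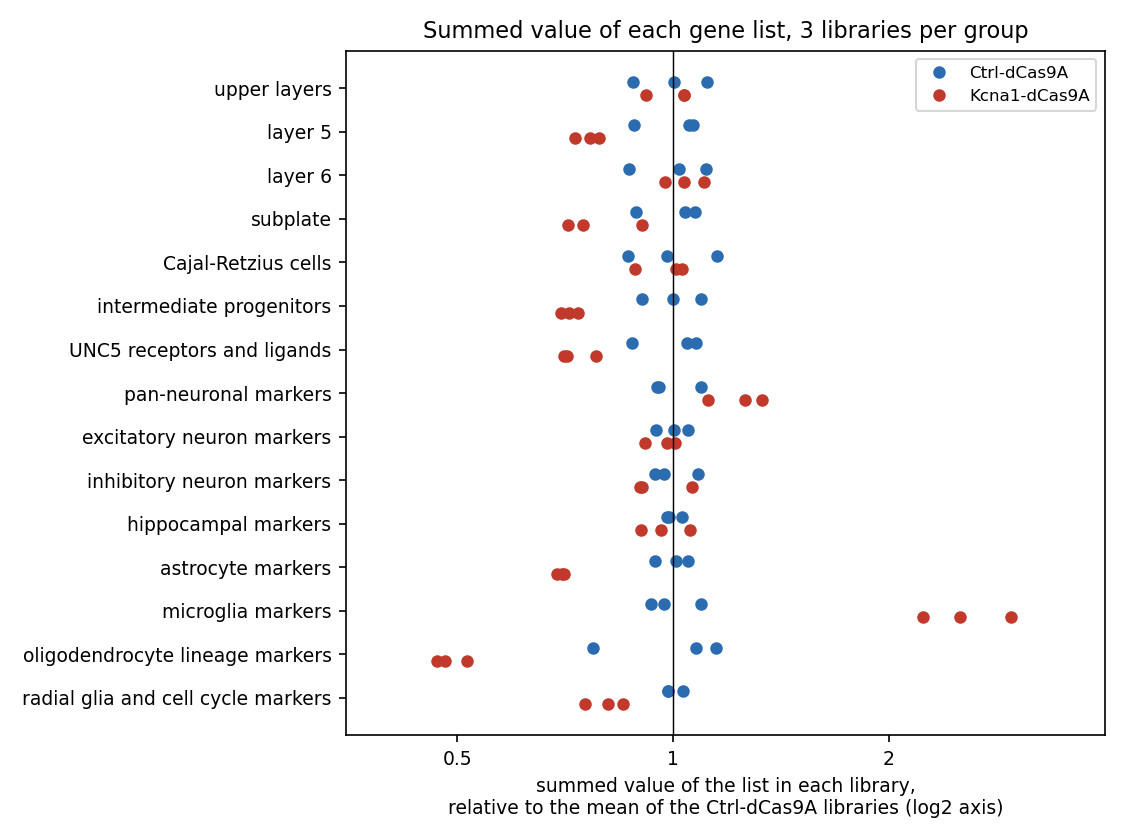
Summed value of each gene list in each library, divided by the mean of the Ctrl-dCas9A libraries (x axis, log2 scale), with Ctrl-dCas9A in blue and Kcna1-dCas9A in red and 3 points per group. The groups are apart for the layer 5, intermediate progenitor and *Unc5d*-related lists, pan-neuronal markers and glial and cell cycle markers, and overlap for the upper-layer, layer 6, subplate, Cajal-Retzius cell, excitatory, inhibitory and hippocampal lists. The pan-neuronal sums overlap once *Tubb3* is left out, and the intermediate progenitor sums once *Insm1* is left out.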

How the data were processed

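Gene expression was measured by 3' RNA-seq (QuantSeq) in 3 Ctrl-dCas9A and 3 Kcna1-dCas9A libraries, grouped by the sample titles. Each deposited file lists gene symbols beside 1 whole-number score, which was read as scaled to a common total and rounded by the authors. Totals are nearly equal between libraries, and for genes averaging 4 to 8 the replicate variance was 0.705 (Ctrl-dCas9A) and 0.504 (Kcna1-dCas9A) of the mean, below the sampling noise of raw counts. The submitters' processing notes name mm10, STAR 2.7, featureCounts and DESeq2, whereas the methods of the study name Bowtie2 and NCBI37/mm9 for these libraries. The annotation and the scaling are not given in the sources used here. Depth is unknown, and no interval or floor that needs it is given.

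Values were tested with limma 3.58.1 in R 4.3.3 (lmFit, eBayes with an intensity trend, two-sided) on log2(value + 1), with group as the only factor, over the 19504 genes above 0 in at least 1 library, and with Benjamini-Hochberg adjustment and a threshold of 0.05. On the log2(value + 1) scale the differences of low genes are understated. No count model was run, because the files hold no counts. The members and all gene lists were chosen with earlier results of these data known. Named were the 9 members, *Kcna1* and the nearest genes of *Unc5d*. From each layer list and the *Unc5d*-related list came every gene past the threshold and the 2 of highest mean. The 2 of largest change with a mean of at least 5 were added from each. *Eomes*, *Flrt2*, *Unc5c* and *Kitl* were chosen after their values were seen, as were Gm43188, Gm44438, Gm9911, Gm45652 and Gm45656. So were the cell markers and the sums without *Tubb3* and without *Insm1*. Simulated data had the means of the genes and a spread smoothed over the mean, without the differences in spread between genes of like mean. A simulated log2 difference of 1, given only to genes with a mean of at least 10, was recovered for 92 of 200 genes among 18638. There were 0 false calls at this smoothed spread. Changes of this size and smaller can thus be missed, and lower genes such as Svet1 and *Rorb* were not covered. Sites resembling sg19 were searched without gaps in NCBIM37 (Python 3.11.15), with loci from GENCODE vM1 and other coordinates from RefSeq GRCm38.p6.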

Additional observations from a re-analysis of the deposited data

How the results depend on the processing

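The number of genes past the threshold was 226 of 19504 as reported, 1719 with median-of-ratios factors and 2058 with upper-quartile factors. It was 10 with a pseudocount of 0.5, 475 with a pseudocount of 5 and 0 with the replicate number as a block. After requiring a mean of 1 and of 10 it was 1543 of 13604 and 2289 of 8050 tested. Without the intensity trend 201 genes passed, 117 higher and 84 lower, where 68 were higher and 158 lower as reported. Of the 226 genes, 84 also passed without the trend. Leaving out 1 library gave 0 to 2711 genes, 2711 of 19122 tested without Ctrl-dCas9A replicate 3 and 0 without any other. Of the 60 layer-list genes, 0 passed as reported, 5 with median-of-ratios factors, 6 with upper-quartile factors and 2 with a pseudocount of 5. With mean values of at least 1 and 10, 6 of 55 and 10 of 36 tested passed. Of all genes 1543 of 13604 and 2289 of 8050 passed in these fits, so that both counts are near the background. With 1 library left out 0 to 11 of the 60 passed. The 11 were again without Ctrl-dCas9A replicate 3, where 2711 of 19122 of all genes passed.

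*Bcl11b* passed with median-of-ratios (log2 fold change -0.47) and upper-quartile factors (-0.44) and for genes with a mean of at least 1 or 10 (-0.56 in both), and left-out libraries gave -0.68 to -0.49. *Fezf2* passed with upper-quartile factors (0.53), and left-out libraries gave 0.34 to 0.53. *Unc5d* (-0.64) and *Cux1* (-0.60) passed for genes with a mean of at least 10, and left-out libraries gave -0.87 to -0.50 for *Unc5d*. *Bcl11b*, *Fezf2* and *Unc5d* passed when Ctrl-dCas9A replicate 3 was left out and in no other such fit. *Cux2* changed sign with median-of-ratios (0.039) and upper-quartile factors (0.069) and without Kcna1-dCas9A replicate 2 (0.046), within a range of -0.12 to 0.046 over left-out libraries. Fewer genes were tested with a minimum mean; the cause of the other shifts was not tested. The median log2 fold change of genes with a mean of at least 10 was -0.059 as reported and 0.056 with upper-quartile factors. With the replicate block 0 layer genes passed. The log2 fold change of *Kcna1*, 1.83 as reported, was 1.73 to 1.99 over left-out libraries, and its limma adjusted p was 0.11 with the block and 0.11 to 0.14 when any library but Ctrl-dCas9A replicate 3 was left out. Libraries with the same number deviated from their group means with correlations of 0.013, 0.030 and 0.047, and those with different numbers with -0.054 to 0.026. With the block the standard error was lower for the tested members other than *Unc5d* and *Rorb* (for *Bcl11b* 0.066 against 0.13). Small correlations over all genes do not settle whether the numbers pair the libraries, and neither source states a pairing. The unknown depth limits values as low as those of Svet1 and *Rorb*.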
